A study of Homo sapiens with 6 samples.

Results

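The keratin genes were taken from the table of gene counts as the protein-coding rows whose symbol is KRT followed by a number and, at most, a letter from A to C. The rule found 39 members among 31831 listed genes, of which 17551 are protein-coding, and the expression of the members was compared between control cells and cells that overexpressed hnRNP-F. The cells were HK-2, an established and immortalized line of human proximal tubule epithelium, and all of them received 30 mM glucose for 72 h. Per the labels, 3 libraries came from cells with a control plasmid (HG-NC) and 3 from cells overexpressing HNRNPF (HG-OE). Per the study's methods, both vectors were lentiviral, so that both groups had been transduced. The overexpressing population was not described as a single clone, and the replicates, named as biological by the study, share 1 cell line.

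Keratins are the intermediate filament proteins of epithelial cells. Each filament is built from pairs of an acidic type I chain and a basic or neutral type II chain, so that a cell needs both types. Simple epithelia such as the renal tubule are known for KRT8 and KRT18, with KRT7, KRT19 and KRT20 in some segments and ducts. Stratified, or squamous, epithelia use other pairs, among them KRT5 with KRT14 in basal cells, KRT1 with KRT10 in the layers above, KRT6 with KRT16 and KRT17 in wounded or cultured epithelium, and KRT4 with KRT13 in mucosa. The human type II genes lie together on chromosome 12 and the type I genes on chromosome 17, except KRT18, which lies beside KRT8 in the type II cluster.

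The members comprised all 5 simple epithelial keratins, 16 of 20 squamous keratins, 14 of 26 keratins of hair and inner root sheath and 4 other keratins (KRT23, KRT24, KRT80 and KRT222). The remaining 16 of the 55 keratins looked for had no row in the table. Only 13 of the 39 members held enough counts for the test across genes, and the other 26 are described by their counts. The tested members therefore do not stand for the whole family, since a gene counted in 1 library alone was kept out.

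The libraries held 25507595 to 29444841 counted read pairs. HNRNPF, the overexpressed gene, had 7733, 8623 and 8692 counts in HG-NC replicates 1, 2 and 3 and 12492, 13155 and 12397 counts in HG-OE replicates 1, 2 and 3. It was 1.40-fold higher in the HG-OE libraries, with a log2 fold change of 0.48 ± 0.0388 (SE) and an adjusted p of 2.80e-07 by the quasi-likelihood test of edgeR, adjusted after Benjamini and Hochberg and used throughout. HG-OE replicate 3 stood apart from HG-OE replicates 1 and 2. Across genes, its log2 CPM (counts scaled to library size by TMM) correlated with theirs at 0.9868 to 0.9869, whereas they correlated with each other at 0.9947. Of 16 liver markers, all 16 had a count in HG-OE replicate 3 and in HG-NC replicate 3, where 16 and 11 of them reached 10 counts, and 7 to 9 had a count in each of the other libraries. Their summed level in HG-OE replicate 3 was 151.4 FPKM (counts scaled to library size and gene length) when SERPINA1, present in all libraries, was left out. The other libraries summed to 0.69 to 1.27 FPKM, and HG-NC replicate 3 to 3.77 FPKM. For this reason the results that depend on HG-OE replicate 3 are given with and without it. Of the 14 proximal tubule markers with a row, PAX8, a transcription factor of renal epithelium, was abundant in every library, at 11953 to 18291 counts, whereas the endocytic receptor gene LRP2 had 0 counts in every library except HG-OE replicate 3, where it had 17. In bulk RNA, more cells of a type and more RNA per cell cannot be told apart.

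The simple epithelial keratins differed between the groups in both directions. KRT8, KRT18 and KRT7 rose and KRT19 fell, so that all 4 tested genes of this list passed the adjusted p threshold of 0.05, 3 of them upward and 1 downward. Among all 17142 genes tested, 25.9% passed upward and 25.9% downward. Only KRT8 also passed the 2-fold threshold of the study, which 5.82% of all genes tested did. None of the 4 overlapped between the groups in CPM, which was true of 59.0% of all genes tested. The median log2 fold change of the list was 0.57, against 0.011 over all genes tested. In the fit without HG-OE replicate 3 it was 0.35, against 0.003 over all genes tested.

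KRT8 (ENSG00000170421.12) encodes the main type II keratin of simple epithelia and lies on chromosome 12 of GRCh38 from 52897187 to 52949954, on the minus strand. It had 7438, 8089 and 8332 counts in HG-NC replicates 1, 2 and 3, and 18256, 19006 and 28781 counts in HG-OE replicates 1, 2 and 3. Every HG-OE library was above every HG-NC library, and HG-OE replicate 3 was the highest. In CPM, the HG-NC libraries averaged 296.5 ± 3.45 and the HG-OE libraries 754.9 ± 198 (SD, n = 3). The log2 fold change was 1.35 ± 0.123 (SE, edgeR adjusted p = 9.13e-07), and without HG-OE replicate 3 it was 1.11 ± 0.0348 (edgeR adjusted p = 1.17e-31).

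KRT18 (ENSG00000111057.11) encodes the type I partner of KRT8 and lies next to it, from 52948871 to 52952906 on the plus strand. It was counted 5216, 5553 and 5783 times in the HG-NC libraries and 8054, 8221 and 14286 times in the HG-OE libraries, in replicate order. HG-OE replicates 1 and 2 lay close together, and HG-OE replicate 3 was far above them. The log2 fold change was 0.76 ± 0.156 (SE, edgeR adjusted p = 0.00101). Without HG-OE replicate 3 it was 0.44 ± 0.0371 (edgeR adjusted p = 7.77e-15), so that the fold of KRT18 depended more on that library than the fold of KRT8 did.

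The gene models of KRT8 and KRT18 overlap by 1084 bases on opposite strands. The libraries were directional, but whether strand was used in counting is not given in the sources used here, and without strand the reads in the overlap cannot be told apart. Both genes also have processed pseudogenes with nearly the same sequence, and only uniquely mapped reads were counted. The 24 KRT8 pseudogenes in the table held 200 to 267 counts in all in each library, or 0.695% to 3.30% of the counts of KRT8. The 26 KRT18 pseudogenes held 14 to 36 counts, or 0.175% to 0.438% of those of KRT18.

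KRT7 (ENSG00000135480.16), a type II keratin of ducts and glands, lies on chromosome 12 from 52232520 to 52252186. It had 1362, 1446 and 1471 counts in HG-NC and 1891, 1784 and 2372 counts in HG-OE, again with the highest value in HG-OE replicate 3. The rise was smaller than those of KRT8 and KRT18, with a log2 fold change of 0.38 ± 0.0812 (SE, edgeR adjusted p = 0.00145) and, without HG-OE replicate 3, 0.25 ± 0.0522 (edgeR adjusted p = 6.18e-05). An antisense gene inside it, KRT7-AS, had 45 to 67 counts in HG-NC and 65 to 100 counts in HG-OE.

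KRT19 (ENSG00000171345.13), the smallest type I keratin and a marker of ductal and progenitor-like epithelium, lies on chromosome 17 from 41523617 to 41528308. It had 5646, 6453 and 6606 counts in HG-NC and 4017, 4281 and 5596 counts in HG-OE. All HG-OE libraries were below all HG-NC libraries, and HG-OE replicate 3 was the nearest to them. The log2 fold change was -0.55 ± 0.0881 (SE, edgeR adjusted p = 1.46e-04) with all libraries and -0.70 ± 0.0416 (edgeR adjusted p = 2.69e-20) without HG-OE replicate 3. KRT20, the keratin of gut and urothelial surface cells, was nearly absent, with 0, 1 and 2 counts in HG-NC and 0, 0 and 3 in HG-OE.

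**Figure D1:**
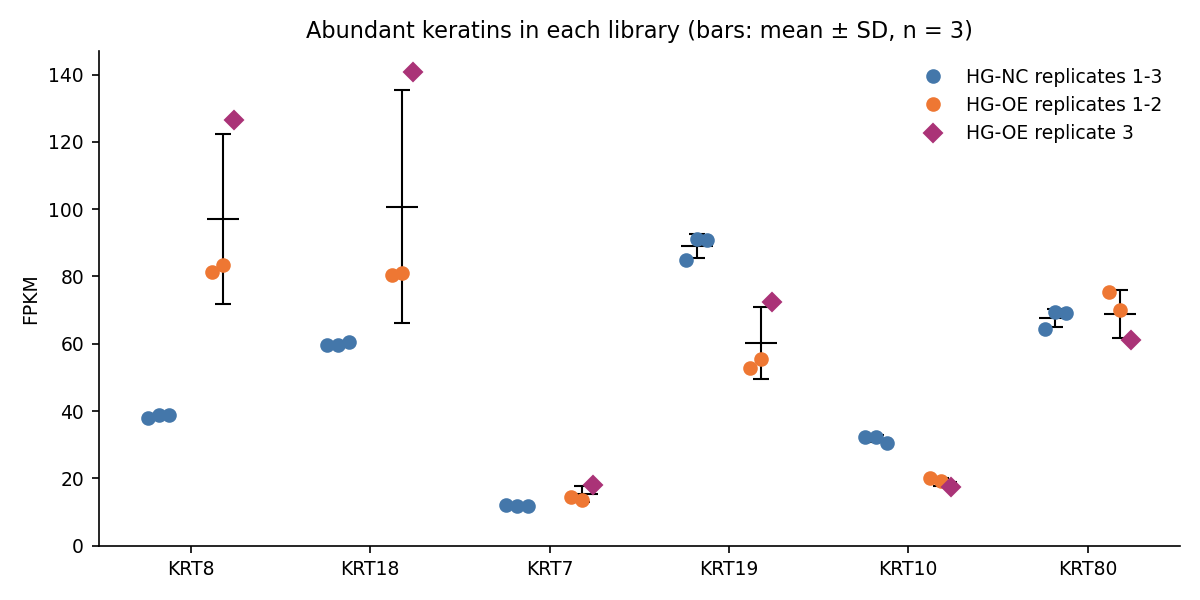
FPKM of the 6 most abundant keratins in each library, with 1 point per library and bars for the mean ± SD of 3 libraries. KRT8 and KRT18 are higher in every HG-OE library, with HG-OE replicate 3 (diamond) highest at 126.35 and 140.62 FPKM, whereas KRT10 and KRT19 are lower and KRT80 overlaps between the groups.

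Of the squamous keratins, 5 were abundant enough to be tested, of which 1 rose (KRT79), 1 fell (KRT10) and 3 did not pass (KRT3, KRT15 and KRT78). Among all genes tested, 25.9% rose, 25.9% fell and 5.82% passed the 2-fold threshold. In edgeR 0 of them passed the 2-fold threshold, and 0 did so at an unadjusted p under 0.05 or with the adjusted p of DESeq2. The median log2 fold change of the 5 was -0.29. Leaving out HG-OE replicate 3, KRT79 alone passed the 2-fold threshold, which 6.24% of all genes tested did in that fit.

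KRT10 (ENSG00000186395.9) is the type I keratin of suprabasal epidermis, and it was by far the most abundant member of this list in HK-2 cells. It lies on chromosome 17 from 40818117 to 40822614. The counts were 1996, 2119 and 2054 in HG-NC and 1413, 1381 and 1256 in HG-OE. All HG-OE libraries were below all HG-NC libraries, and HG-OE replicate 3 was not apart from the other HG-OE libraries. KRT10 was 31.75 ± 1.05 FPKM in HG-NC and 18.96 ± 1.28 FPKM in HG-OE, with a log2 fold change of -0.73 ± 0.055 (SE, edgeR adjusted p = 1.68e-07) and of -0.67 ± 0.0521 without HG-OE replicate 3 (edgeR adjusted p = 5.24e-16). Its usual type II partner, KRT1, had a single count in a single library.

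KRT79 (ENSG00000185640.6), a type II keratin known from the lining of hair follicle openings and sebaceous ducts, lies on chromosome 12 from 52821408 to 52834311. It had 30, 37 and 42 counts in HG-NC and 82, 86 and 39 counts in HG-OE, so that HG-OE replicates 1 and 2 were above all HG-NC libraries and HG-OE replicate 3 was within their range. The log2 fold change of 0.81 ± 0.282 (SE) passed narrowly, with an edgeR adjusted p of 0.0277. Without HG-OE replicate 3 it was 1.09 ± 0.223 (edgeR adjusted p = 4.15e-05), whereas without any 1 of the other libraries the adjusted p was 0.0521 to 0.126 and the call was lost.

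KRT15, a keratin of basal cells, had 122, 145 and 160 counts in HG-NC and 107, 149 and 124 counts in HG-OE, with overlapping groups. Its log2 fold change was -0.29 and did not pass. KRT78, of stratified mucosa, had 41 to 51 counts in HG-NC and 43 to 64 in HG-OE, and KRT3, of corneal epithelium, had 22 to 24 counts in HG-NC and 16 to 22 in HG-OE. Neither passed the test.

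The region before the start of transcription is given here for KRT79 and KRT10, the squamous keratins that passed the test in opposite directions, as the 250 bases up to the start in RefSeq (GRCh38.p14). Both lie on the minus strand, KRT79 at chr12:52834312-52834561 and KRT10 at chr17:40822615-40822864, and are written 5′ to 3′ with a match to TATAAA in capitals.
KRT79: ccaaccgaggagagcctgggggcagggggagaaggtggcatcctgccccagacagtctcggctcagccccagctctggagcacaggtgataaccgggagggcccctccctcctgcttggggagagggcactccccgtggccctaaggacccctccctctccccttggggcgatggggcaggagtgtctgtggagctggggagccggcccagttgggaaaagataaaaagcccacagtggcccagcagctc
KRT10: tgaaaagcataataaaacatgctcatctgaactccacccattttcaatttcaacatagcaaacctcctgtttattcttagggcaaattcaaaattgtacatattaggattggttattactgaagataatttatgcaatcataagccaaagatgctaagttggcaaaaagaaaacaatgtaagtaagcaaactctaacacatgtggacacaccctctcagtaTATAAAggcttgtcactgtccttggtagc
In KRT10 the match begins 29 bases before the start, and in KRT79 there was none. The motifs searched, on both strands and without overlap between them, were TATAAA (the TATA box), TGANTCA (the AP-1 site) and GGGCGG (the GC box). Of the 39 members, 20 had an entry, and of these 9 held TATAAA, 0 held TGANTCA and 1 held GGGCGG. Of all 35116 windows of the same length, 10.7% held TATAAA, 6.57% TGANTCA and 42.6% GGGCGG.

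A second group of squamous keratins was counted almost entirely in HG-OE replicate 3. KRT17, a type I keratin of basal and wounded epithelium, had 1 count in each HG-NC library, 0 and 1 in HG-OE replicates 1 and 2, and 724 in HG-OE replicate 3. KRT5, the type II keratin that defines basal cells, had 0 counts in the other 5 libraries and 334 in HG-OE replicate 3. KRT6A, its relative in wounded epithelium, had 0 counts in the same 5 libraries and 274 in HG-OE replicate 3. Against a floor of 3 counts per library, this made KRT5 at least 96.4-fold and KRT6A at least 79.1-fold higher in HG-OE replicate 3 than in any other library. Such floors cover counting error only.

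The same held for KRT13, of mucosal epithelium, with 2, 0 and 2 counts in HG-NC, 0 and 1 in HG-OE replicates 1 and 2 and 247 in HG-OE replicate 3. KRT23, a type I keratin outside the classical pairs, had 2, 6 and 4 counts in HG-NC, 0 and 3 in HG-OE replicates 1 and 2 and 150 in HG-OE replicate 3. KRT16 was less far apart, with 28 counts in HG-OE replicate 3 and 3 to 10 elsewhere. In the same library, KRT14, the usual partner of KRT5, had 3 counts and KRT6B had 2, with 0 in all others. Members of these families are nearly identical in sequence (KRT6A with KRT6B and KRT6C, KRT14 with KRT16 and KRT17), so their split under unique mapping is uncertain. Since the counts lay in 1 library, no test of the groups was made for these genes.

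**Figure D2:**
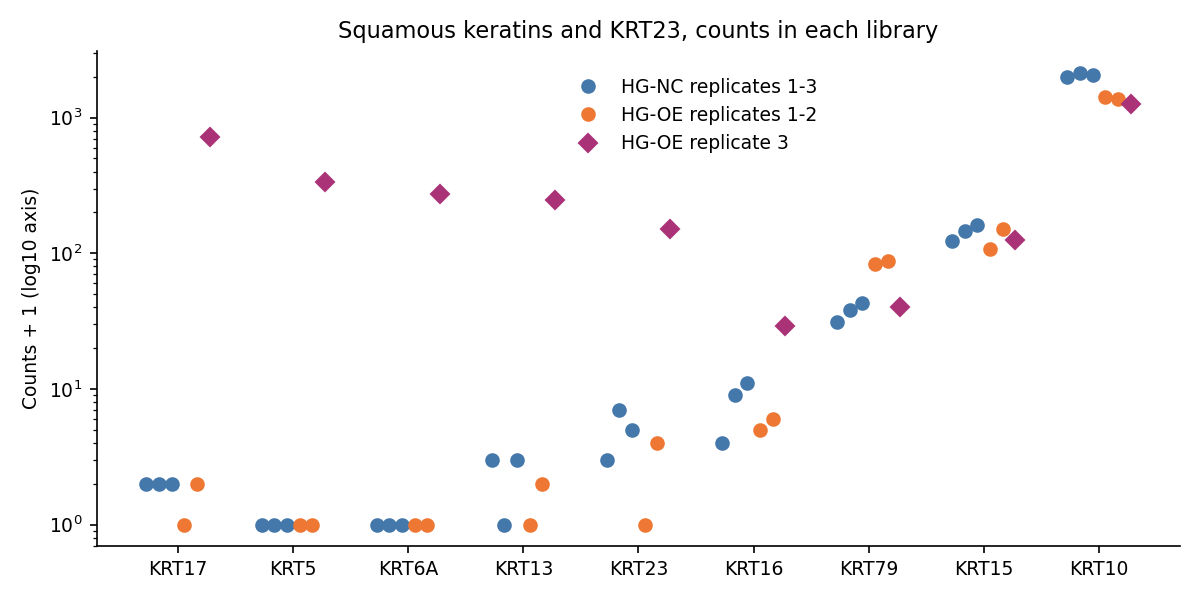
Counts plus 1 of 8 squamous keratins and KRT23 in each library, on a log10 axis, with HG-OE replicate 3 drawn as a diamond. KRT17, KRT5, KRT6A, KRT13 and KRT23 have 150 to 724 counts in HG-OE replicate 3 and at most 6 in the other libraries, whereas KRT79, KRT15 and KRT10 in HG-OE replicate 3 lie among or below the rest.

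Other markers of stratified epithelium moved in the same library. Of 27 genes of the cornified envelope and late squamous differentiation with a row, 25 had a count in HG-OE replicate 3 and 10 to 13 in each of the other libraries. Their summed level was 43.88 FPKM in HG-OE replicate 3 and 8.03 to 9.97 FPKM elsewhere. SFN, an abundant epithelial 14-3-3 protein gene, had 712 counts in HG-OE replicate 3 and 173 to 246 elsewhere, and S100A9 had 231 counts there and at most 10 elsewhere. TP63, the transcription factor that defines basal epithelium, had 36 counts there, 3 and 2 in HG-OE replicates 1 and 2 and 0 in HG-NC. The liver markers described above, except SERPINA1 and HP, also peaked in this library, and KRT8 and KRT18 are the keratins of hepatocytes. The part of either cell type in the keratin values of HG-OE replicate 3 was not tested.

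Among the hair and inner root sheath keratins, 3 of 14 members with a row were tested. Of these, 0 rose and 1 fell, beside 25.9% of all genes tested in each direction. KRT81, a type II keratin of the hair cortex, fell, with 73, 75 and 87 counts in HG-NC and 43, 58 and 61 counts in HG-OE. The groups did not overlap, which was true of 59.0% of all genes tested. The log2 fold change was -0.65 ± 0.193 (SE, edgeR adjusted p = 0.0114) with HG-OE replicate 3 and -0.75 ± 0.211 without it (edgeR adjusted p = 0.00229). KRT34, a type I hair keratin, had 64, 91 and 87 counts in HG-NC and 59, 78 and 42 in HG-OE and did not pass (log2 fold change -0.55, edgeR adjusted p = 0.0575). KRT86, at 15 to 21 counts in HG-NC and 10 to 23 in HG-OE, did not pass either. KRT81, KRT83 and KRT86 share long stretches of sequence, KRT81 lies inside the span of the KRT86 gene model, and that model overlaps KRT7 by 2887 bases, so these counts are uncertain.

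KRT80, a type II keratin of many epithelia, was among the most abundant members. It had 8024, 9166 and 9395 counts in HG-NC and 10718, 10133 and 8825 counts in HG-OE. With all libraries its log2 fold change was 0.041 ± 0.0609 (SE) and did not pass (edgeR adjusted p = 0.605). Without HG-OE replicate 3 it was 0.12 ± 0.0378 and passed (edgeR adjusted p = 0.00618).

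Of the remaining members below the low-count filter, KRT33B, KRT4, KRT32 and KRT25 reached 8, 12, 6 and 6 counts in their highest library. KRT39 reached 5, KRT12 reached 3, and KRT2 and KRT83 reached 2. KRT1, KRT24, KRT31, KRT33A, KRT36, KRT72, KRT75, KRT85 and KRT222 did not exceed 1 count in any library. No difference was detectable at such counts.

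Over all 39 members, 4 rose and 3 fell of the 13 tested, and 6 did not pass, beside 25.9% of all genes tested in each direction. With HG-OE replicate 3 left out, 5 rose, 3 fell and 5 did not pass, and 26.7% of all genes tested rose and 27.2% fell. By position, the 2 clusters were counted apart with all libraries, beside the same 25.9% of all genes tested in each direction. On chromosome 12, from 52168996 to 52952906, 9 members were tested, of which 4 rose (KRT7, KRT79, KRT8 and KRT18), 1 fell (KRT81) and 4 did not pass. On chromosome 17, from 40654665 to 41624842, 4 were tested, of which 0 rose, 2 fell (KRT10 and KRT19) and 2 did not pass. At an unadjusted p under 0.05 in edgeR, 0 rose and 3 fell on chromosome 17, and DESeq2 gave 0 and 2. The surrounding genes on chromosome 17 were also lower, with a median log2 fold change of -0.24 over 251 genes within 10 Mb of the cluster and of -0.19 over the chromosome, while 200 genes around the chromosome 12 cluster had a median of 0.06. With the median of its neighbours removed, KRT10 still had a log2 fold change of -0.48, KRT19 of -0.31, KRT8 of 1.29, KRT18 of 0.70 and KRT7 of 0.32.

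**Figure D3:**
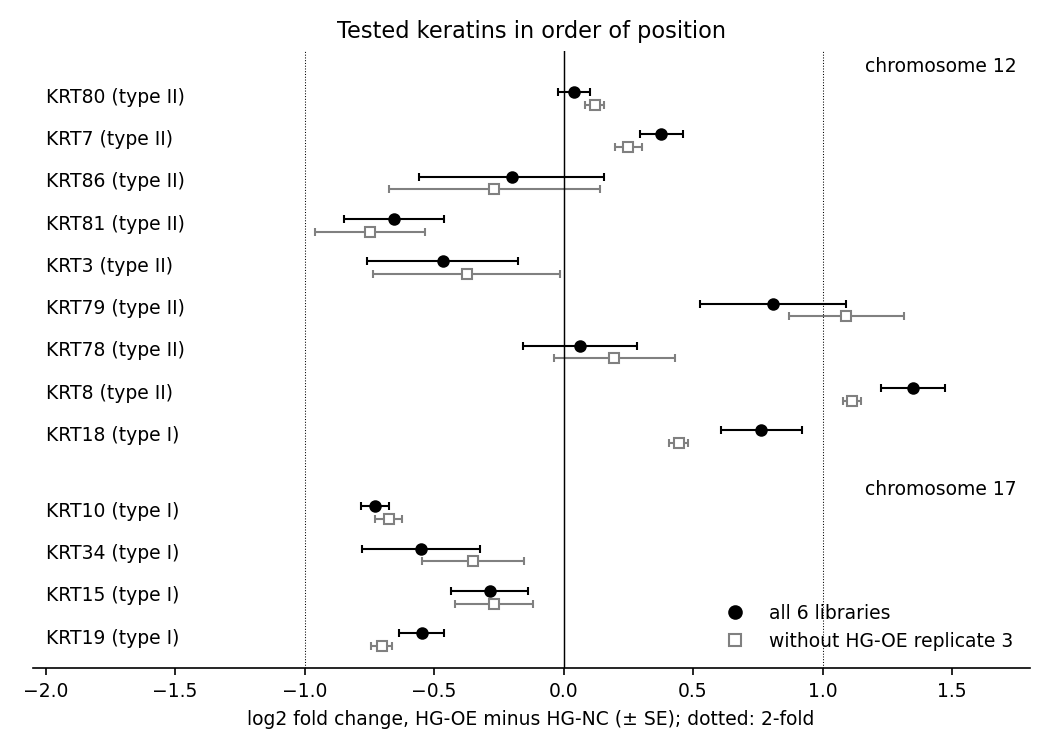
Log2 fold change (HG-OE minus HG-NC, ± SE) of the 13 tested keratins in order of position on each chromosome, with all 6 libraries (filled) and without HG-OE replicate 3 (open). KRT8 lies at 1.35 and KRT79 at 0.81 on chromosome 12, and all 4 members on chromosome 17 lie below 0, from -0.73 for KRT10 to -0.29 for KRT15.

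The composition of the keratin pool differed between the groups. Levels of different genes were compared per length, by the deposited FPKM. In HG-NC, KRT19 was the highest at 88.96 ± 3.6 FPKM (mean ± SD, n = 3), followed by KRT80 at 67.68 ± 2.74, KRT18 at 59.98 ± 0.524, KRT8 at 38.55 ± 0.541, KRT10 at 31.75 ± 1.05 and KRT7 at 11.9 ± 0.0643 FPKM. Each of these neighbours in the order differed by more than their spread. In HG-OE, KRT18 at 100.7 ± 34.6 FPKM and KRT8 at 97.07 ± 25.4 FPKM were highest and did not differ beyond their spread. The same held for KRT80 at 68.86 ± 7.22 and KRT19 at 60.16 ± 10.6 FPKM. HG-OE replicate 3 differed in order from the other HG-OE libraries. KRT80 had 75.35 and 70.15 FPKM and KRT19 52.76 and 55.37 in HG-OE replicates 1 and 2. In replicate 3 they had 61.09 and 72.36 FPKM. KRT8 and KRT18 averaged 82.43 and 80.72 FPKM in HG-OE replicates 1 and 2, and had 126.35 and 140.62 in replicate 3. Together, the top 6 members held 95.4% to 98.6% of all keratin FPKM in a library.

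As a share of all keratin FPKM, KRT8 went from a mean of 12.7% in HG-NC to 25.9% in HG-OE and KRT18 from 19.7% to 26.6%. KRT19 went from 29.2% to 16.2% and KRT10 from 10.4% to 5.27%. Here HG-OE replicates 1 and 2 already showed the change, with KRT8 at 24.7% and 25.4%, and KRT19 was at 15.8% to 16.9% in all HG-OE libraries. KRT17, KRT6A, KRT13 and KRT5 took 1.60%, 0.619%, 0.560% and 0.534% of the pool in HG-OE replicate 3 and at most 0.00674% in any other library.

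**Figure D4:**
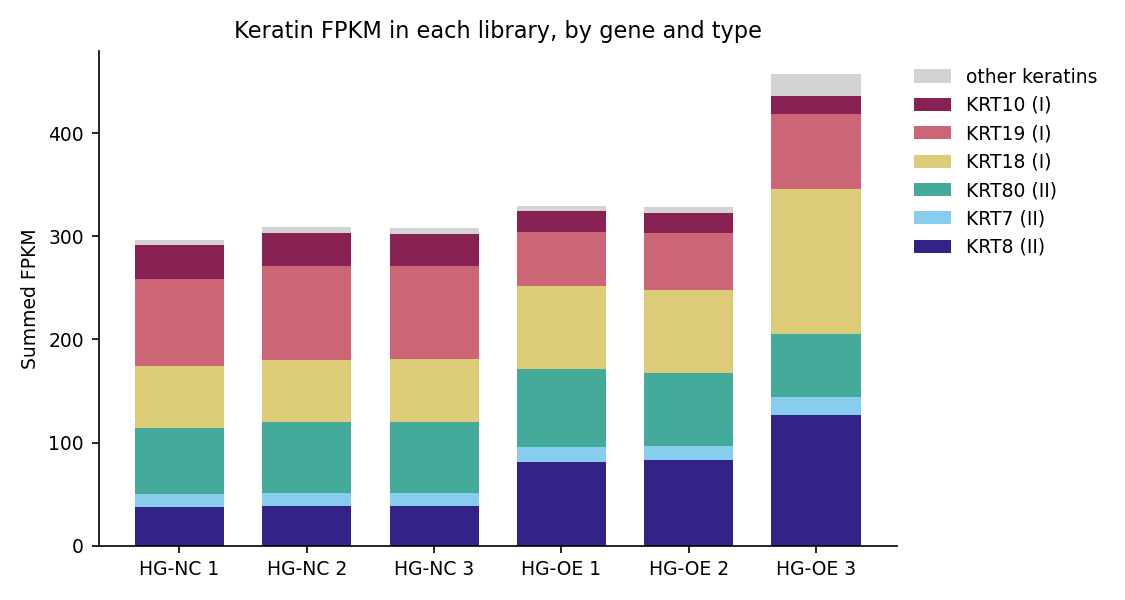
Summed FPKM of the keratins in each library, stacked by gene with the type of each in brackets. The whole pool is 296.7 to 309.0 FPKM in HG-NC, 328.3 to 329.3 in HG-OE replicates 1 and 2 and 457.0 in HG-OE replicate 3, and the KRT8 layer is thicker in all HG-OE libraries.

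Summed over a list, the simple epithelial keratins were 199.4 ± 4.41 FPKM in HG-NC and 273.2 ± 72.8 FPKM in HG-OE, where HG-OE replicates 1 and 2 had 229.2 and 233.2 and HG-OE replicate 3 had 357.3 FPKM. The exact two-sided permutation test gave p = 0.1, below which 3 libraries against 3 cannot go. The squamous keratins went from 34.07 ± 0.855 to 26.44 ± 7.29 FPKM (exact permutation p = 0.4), with 22.5 and 21.97 FPKM in HG-OE replicates 1 and 2 and 34.85 in HG-OE replicate 3. This sum was mostly KRT10 in HG-NC and in HG-OE replicates 1 and 2. In HG-OE replicate 3 KRT10 was at its lowest, 17.54 FPKM, and the other squamous keratins summed to nearly as much. Without KRT10, the squamous keratins were 2.19 to 2.55 FPKM in HG-NC, 2.46 and 2.68 in HG-OE replicates 1 and 2 and 17.31 in HG-OE replicate 3.

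By type, the type II keratins summed to 117.5 to 123.2 FPKM in HG-NC and to 170.1 to 213.0 FPKM in HG-OE (exact permutation p = 0.1, the smallest possible). The type I keratins were 179.3 to 186.2 FPKM in HG-NC, 155.3 and 158.2 FPKM in HG-OE replicates 1 and 2 and 244.0 FPKM in HG-OE replicate 3 (exact permutation p = 1.0). The ratio of type II to type I was therefore 0.655 to 0.666 in HG-NC and 1.12, 1.08 and 0.873 in HG-OE replicates 1, 2 and 3, without overlap. For the KRT8 and KRT18 pair alone, it was 0.636 to 0.650 in HG-NC and 1.01, 1.03 and 0.899 in HG-OE. Both ratios were lower in HG-OE replicate 3 than in the other HG-OE libraries, and still above all HG-NC libraries.

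The order of the genes and the size of these ratios depend on the length given to each gene. The lengths implied by the deposited counts and FPKM were 7.73 kb for KRT8, 3.45 kb for KRT18 and 2.62 kb for KRT19, whereas their canonical transcripts in GENCODE release 44 are 1.78, 1.41 and 1.39 kb long. Per kb of the canonical transcript, KRT19 and KRT8 were level in HG-NC, at 167.1 ± 6.41 and 166.2 ± 1.94 CPM per kb, with KRT18 at 145.6 ± 0.717. In HG-OE, KRT8 was at 423.1 ± 111 CPM per kb, KRT18 at 247.2 ± 84.9 and KRT19 at 114.3 ± 20.3. On this scale the ratio of type II to type I was 0.811 to 0.814 in HG-NC and 1.30 to 1.52 in HG-OE, and that of KRT8 to KRT18 was 1.13 to 1.15 in HG-NC and 1.60 to 1.83 in HG-OE. Both ratios had the same direction on both scales, with no overlap of the groups. The mean shares of the pool were, on this scale, 25.9% in HG-NC and 44.2% in HG-OE for KRT8, 22.7% and 25.5% for KRT18, 26.0% and 12.1% for KRT19 and 5.58% and 2.37% for KRT10. The mean log2 difference of the summed simple epithelial keratins was 0.42 by FPKM, 0.66 per kb of the canonical transcript and 0.73 by CPM. For the squamous keratins it was -0.40, -0.24 and -0.28, and for the type I keratins it turned from -0.015 to 0.12 and 0.096. These differences include HG-OE replicate 3. For the type I keratins, the mean of HG-OE replicates 1 and 2 was 0.854 of the HG-NC mean by FPKM and 0.926 per kb of the canonical transcript.

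Genes that anchor, accompany or direct keratins were examined in 4 lists. Of 18 tested genes of the desmosome and hemidesmosome, the junctions that hold keratin filaments to the membrane, 8 rose and 2 fell, and 5 passed the 2-fold threshold, beside 25.9%, 25.9% and 5.82% of all genes tested. DSP, the desmoplakin that ties keratin to the desmosome, had 1444, 1712 and 1678 counts in HG-NC and 3637, 3788 and 3688 counts in HG-OE, with a log2 fold change of 1.08 ± 0.0465 (SE, edgeR adjusted p = 1.03e-09). PLEC, the plectin that crosslinks intermediate filaments, rose by 0.80 on the log2 scale, and CD151, a tetraspanin of the hemidesmosome and the most abundant member, by 0.43. Without HG-OE replicate 3, DSP was at 1.09, PLEC at 0.84 and CD151 at 0.43. The hemidesmosomal integrin ITGA6 rose by 0.78, and by 0.60 without that library. JUP, the plakoglobin of the same plaques, did not pass (log2 fold change 0.11, edgeR adjusted p = 0.0984).

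The other 4 genes were past the 2-fold threshold only with HG-OE replicate 3 included. PPL, the periplakin gene, had 8 to 21 counts in the other libraries and 393 in HG-OE replicate 3, and its log2 fold change of 2.89 became -0.74 without that library. PKP3, a plakophilin of epithelial desmosomes, had 88 to 124 counts in HG-NC, 165 and 144 in HG-OE replicates 1 and 2 and 760 in replicate 3. Its log2 fold change went from 1.60 to 0.40 without that library and still passed (edgeR adjusted p = 0.0201). COL17A1, a hemidesmosomal collagen, had 11 to 19 counts in HG-NC, 22 and 40 in HG-OE replicates 1 and 2 and 121 in replicate 3. Its log2 fold change was 1.83, and 0.87 without that library (edgeR adjusted p = 0.0407). EPPK1, the epiplakin that binds keratins, had 13 to 18 counts in HG-NC, 28 and 30 in HG-OE replicates 1 and 2 and 123 in replicate 3. Its log2 fold change was 1.85, and 0.80 without that library, where it did not pass (edgeR adjusted p = 0.0548). In the fit without HG-OE replicate 3, 7 desmosome and hemidesmosome genes rose and 4 fell, with DSP the only one past 2-fold, where 26.7% of all genes tested rose, 27.2% fell and 6.24% were past 2-fold.

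Of 14 tested genes of other intermediate filaments, 9 rose and 1 fell, beside 25.9% of all genes tested in each direction. The numbers were also 9 and 1 without HG-OE replicate 3 (26.7% and 27.2% of all genes tested), and their median log2 fold change was 0.52 with it and 0.49 without it. VIM, the vimentin of mesenchymal and cultured cells and the most abundant of all, had 20484, 21986 and 22547 counts in HG-NC and 41372, 43977 and 45824 counts in HG-OE, with a rise of 0.89 ± 0.0379 on the log2 scale (SE, edgeR adjusted p = 9.56e-10). SYNM, encoding synemin, rose by 1.51, and NES, encoding nestin, by 1.07, whereas NEFL, the neurofilament light chain gene, fell by 1.08 on the log2 scale from 36 to 49 counts to 18 to 27 counts. LMNA and LMNB1, of the nuclear lamina, rose by 0.65 and 0.49, and NEFH rose by 0.12 (edgeR adjusted p = 0.0348). The call of NEFH was lost under 7 of 15 alternatives, among them leaving out HG-NC replicate 1 (adjusted p = 0.0916), HG-NC replicate 3 (0.0894) or HG-OE replicate 2 (0.158) in edgeR. Without HG-OE replicate 3, SYNM remained above 2-fold, while NES and NEFL stood at 0.91 and -0.94.

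Of 11 tested transcription and splicing factors of epithelia, 2 rose and 3 fell, close to the 25.9% of all genes tested in each direction, and their median log2 fold change was -0.25. PITX1, a homeobox factor, had 5, 9 and 8 counts in HG-NC and 120, 103 and 223 in HG-OE (log2 fold change 4.20 ± 0.348, edgeR adjusted p = 3.73e-07, and 3.79 without HG-OE replicate 3). TFAP2C, an AP-2 factor, fell by 1.64 on the log2 scale, from 333 to 381 counts to 107 to 133 counts, whereas its relative TFAP2A rose by 0.27. KLF5 and KLF4, zinc finger factors of epithelial differentiation and the most abundant of the list, fell by 0.41 and 0.37. ESRP1, an epithelial splicing factor, had 22 to 42 counts in HG-NC, 9 and 16 in HG-OE replicates 1 and 2 and 178 in HG-OE replicate 3, so that its log2 fold change was 1.01 with that library, without passing, and -1.41 without it (edgeR adjusted p = 0.00228). Without that library, 2 of the 11 rose and 7 fell, beside 26.7% and 27.2% of all genes tested.

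Of the cornified envelope and late squamous genes, only 5 of 27 were tested. Of these, 0 rose and 1 fell, beside 25.9% of all genes tested in each direction. TGM5, a transglutaminase of the cornified envelope, fell, with 135, 172 and 152 counts in HG-NC and 103, 71 and 82 in HG-OE (log2 fold change -0.96 ± 0.162, edgeR adjusted p = 2.27e-04). The 4 others (CNFN, TGM1, SBSN and SFN) did not pass, and SFN, at 0.81 with all libraries, was at 0.02 without HG-OE replicate 3.

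**Figure D5:**
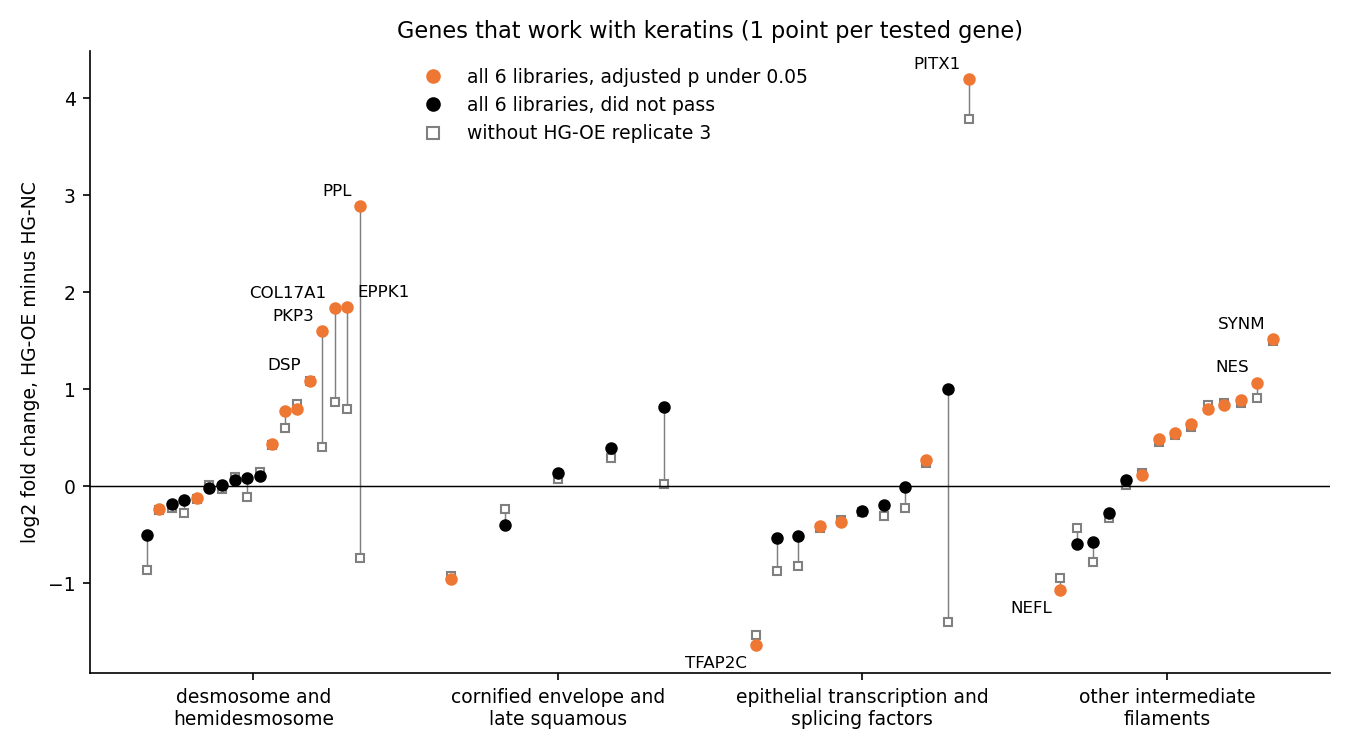
Log2 fold change (HG-OE minus HG-NC) of the tested genes of 4 lists, with all libraries (circles, orange where the adjusted p is under 0.05) and without HG-OE replicate 3 (open squares), joined by a line, and the genes past 2-fold named. DSP at 1.08, SYNM at 1.51 and TFAP2C at -1.64 hardly move between the fits, whereas PPL goes from 2.89 to -0.74.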

How the data were processed

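The report rests on the 6 high-glucose RNA-seq libraries. After trimming and alignment to GRCh38 (HISAT2), the authors deposited counts of uniquely mapped reads per gene, without normalization, together with FPKM values rounded to 2 decimals. The study names ComBat_seq; whether it entered these counts is not stated in the sources used here.

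Counts were tested in R 4.3.3 with edgeR 4.0.16 (TMM, filterByExpr, quasi-likelihood test, Benjamini-Hochberg adjustment over all 17142 genes tested), with DESeq2 1.42.0 and limma 3.58.1 as alternatives, after tests on simulated data. Standard errors come from the F statistic. Summed FPKM were compared by an exact permutation test. Positions come from GENCODE release 44 by gene identifier, for 17107 of the genes tested. No replicates agreed within sampling noise.

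The members and lists were chosen with earlier results of these data known. Named were all tested keratins and, of the other lists, the genes called at 2-fold and the 2 of highest FPKM; PLEC, ITGA6, TFAP2A, TGM5, CNFN, TGM1, SBSN, LMNA, LMNB1, ESRP1 and TP63 were added after their values were seen. The canonical transcript lengths were likewise chosen after seeing the data. The mannitol libraries were not analysed here.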

Additional observations from a re-analysis of the deposited data

How the results depend on the processing

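The alternatives were the size factors of DESeq2, its Wald test, 2 other filters, the replicate block, limma on log2(FPKM + 1) or log2(FPKM + 0.1), each library left out, no fold threshold and the median of neighbouring genes removed. Of the 13 tested keratins, 5 kept their direction and side of the threshold under every alternative (KRT8, KRT10, KRT19, KRT81 and KRT3). Removing the median of neighbours shifts the value and keeps the original p, so it bears on direction alone. KRT79 lost its call under 8 of 15, and KRT18 and KRT7 under 1 (limma on log2(FPKM + 1) without a filter, adjusted p = 0.0806 and 0.0648).

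The keratins past 2-fold numbered 1, against 6 without the low-count filter, where KRT5, KRT6A, KRT13, KRT17 and KRT23 entered through HG-OE replicate 3 alone, and 7 without a fold threshold. Leaving out a library gave 1 to 2. For simple epithelial keratins the number was 1, or 4 without a fold threshold. For squamous keratins it was 0, or 4 without the low-count filter, 2 without a fold threshold and 0 to 1 with a library left out. For hair and other keratins it was 0, or 1 both without the low-count filter and without a fold threshold. The other lists had 10, against 23 without the low-count filter, 26 without a fold threshold, 2, 5 and 2 by limma (log2(FPKM + 1), log2(FPKM + 0.1), and log2(FPKM + 1) without a filter) and 5 to 12 with a library left out, the lowest without HG-OE replicate 3. The summed type II level differed by 0.94 on the log2 scale per kb of the canonical transcript, against 0.61 by FPKM.

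Leaving out a library gave log2 fold changes of -0.46 to 0.071 for KRT86, -0.025 to 0.12 for KRT80, -0.099 to 0.20 for KRT78 and -0.74 to 3.45 for PPL. Over the tested keratins and the genes of the other lists that were past 2-fold or had the highest FPKM, log2 fold changes that turned were KRT86 at 0.071 and KRT80 at -0.025 without HG-OE replicate 1, KRT80 at -0.020 with neighbours removed, KRT78 at -0.028 without HG-NC replicate 2 and -0.099 without HG-OE replicate 1, PPL at -0.74 without HG-OE replicate 3 and NEFH at -0.18 with neighbours removed. Beyond the libraries and genes that an alternative left out, the cause was not tested.

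Over the genes tested, the deviations of same-numbered samples correlated at -0.0273, 0.0301 and -0.000993. Most liver markers lay below the low-count filter, so these values do not cover them. Whether HG-NC replicate 3 and HG-OE replicate 3 share a link in handling was not tested. With the replicate block, 990 genes were called against 997, and 8 keratins passed the adjusted p against 7, KRT34 being added (log2 fold change -0.57, adjusted p = 0.0418). Of the 26 members below the filter, KRT5, KRT6A, KRT13, KRT17 and KRT23 were kept out by having their counts in 1 library, and the others had at most 28 counts in any library.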
